A study of Mus musculus with 6 samples.

Results

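A set of 38 genes that copy the genome and carry cells through S phase was followed in mouse lens capsules, out of 56940 genes counted. The members were taken from a given list of gene symbols, and each symbol matched 1 Ensembl identifier in the count files. The RNA came from lens capsules with the lens epithelial cells that stay attached after the fiber cell mass is removed, a mouse model of cataract surgery. Capsules were taken either at 0 h, directly after removal of the fibers, or 72 h after it, with 3 libraries at each time and 5 pooled capsules in each library. All 6 libraries were labelled C57BL/6 in strain, wildtype in genotype and cataract surgery in treatment, so the 0 h capsules had been operated on as well. The sample descriptions of both groups also carried the tag RUNX_Cre_N, whose meaning the sources used here do not give, and these sources give no age. By design the second eye of a mouse was operated on 72 h after the first, so the groups could hold eyes of the same animals. Nothing says which animals went into which pool, and every p-value here reflects only how far such pools of capsules vary.

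Before a cell divides, the origin recognition complex, with Cdc6 and Cdt1, loads the ring-shaped MCM helicase onto origins of replication. In S phase Cdc45 and the GINS complex turn that ring into an active helicase, polymerases copy both strands behind it, and thymidine and ribonucleotide enzymes supply the nucleotides. Many of these genes are transcribed late in G1 by E2F factors, which are held back by the retinoblastoma proteins in resting cells. In the adult lens most epithelial cells rest, and dividing cells lie mainly in a zone near the lens equator.

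Reads assigned to genes ranged from 11338820 to 12432688 per library at 0 h and from 8453450 to 8945397 at 72 h. Crystallin genes held 16.2% ± 0.577 of these reads at 0 h and 1.98% ± 0.792 at 72 h, and mitochondrial ribosomal RNA held 3.25% ± 0.0643 and 17.9% ± 4.22 (SD, n = 3 each). Of 9 lens epithelial markers all were detected at both times, and 8 of the 9 were called lower at 72 h, beside 17.5% of all tested genes. The exception was Pax6, which was not called. It was at 660 to 706 CPM (read counts scaled to a common library size) at 0 h and at 588 to 749 CPM at 72 h, highest in 72 h replicate 3. The library 72 h replicate 3 stood apart in genes of surface epithelium, whose 8 markers summed to 5207 CPM there. They summed to 13.2 and 116.1 CPM in the other 72 h libraries and to 25.4 to 57.7 CPM at 0 h, and 0 of the 7 that could be tested were called. In bulk RNA, fewer cells of a type and less RNA per cell cannot be told apart.

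Promoter sequences are shown because E2F factors, themselves among the members, are known to act at promoters of replication genes. Whether E2F factors had a part in any change seen here was not tested. RefSeq promoter windows on build GRCm38.p6 (250 bases before to 50 after the annotated start) were matched by symbol for 33 of the 38 genes, which have 39 windows. The other 5 were Ccne2, Gins1, Gins2, Mcm4 and Pole. The windows were searched on both strands for the E2F octamers TTTCCCGC, TTTGGCGC, TTTCGCGC and TTTGCCGC, where matches may overlap. At least 1 octamer lay in 15 of the 39 windows (38.5%), against 744 of all 32851 windows in the table (2.26%). The 21 genes with windows that rose at 72 h had 27 windows, 10 of them with an octamer. The 12 that were tested and not called had 12 windows, 5 of them with an octamer. Counted by window, a gene with several windows weighs more. The 250 bases upstream of the start, 5′ to 3′ on the strand of the gene, are shown for the called gene with the smallest p in the helicase, E2F and nucleotide groups, and capitals mark E2F octamers.
Mcm6 promoter, chr1:128359706-128359955, minus strand: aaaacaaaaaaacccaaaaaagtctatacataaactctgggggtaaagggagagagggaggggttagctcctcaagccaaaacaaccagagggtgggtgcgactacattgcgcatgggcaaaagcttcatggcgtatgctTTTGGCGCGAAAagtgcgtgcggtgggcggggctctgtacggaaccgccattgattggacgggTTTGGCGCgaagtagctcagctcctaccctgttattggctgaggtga
E2f7 promoter, chr10:110745189-110745438, plus strand: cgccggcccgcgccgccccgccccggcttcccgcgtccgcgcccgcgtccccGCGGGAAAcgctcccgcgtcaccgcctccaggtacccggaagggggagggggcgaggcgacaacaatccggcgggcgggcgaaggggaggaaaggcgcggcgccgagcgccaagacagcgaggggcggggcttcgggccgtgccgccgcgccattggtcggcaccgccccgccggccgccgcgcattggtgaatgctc
Tyms promoter, chr5:30073626-30073875, minus strand: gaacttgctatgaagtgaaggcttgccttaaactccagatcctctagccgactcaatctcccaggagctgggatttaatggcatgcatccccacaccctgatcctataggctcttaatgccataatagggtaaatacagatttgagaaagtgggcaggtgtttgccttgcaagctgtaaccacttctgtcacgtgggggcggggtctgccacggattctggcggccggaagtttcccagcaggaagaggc
Mcm6 carries 3 matches, which begin 110, 106 and 47 bases before the start, and the first 2 overlap in 1 block. E2f7 carries 1 match, 198 bases before the start, which reads as the reverse complement of an octamer. Tyms has none of these letters in its window, which says nothing about whether an E2F factor binds there. A match is a description of letters and not a binding site.

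The comparison of 72 h with 0 h asked how transcripts in the capsule had changed by 72 h after surgery. Of the 38 replication genes 37 were tested, 24 rose, 0 fell and 13 were not called. Calls are from the quasi-likelihood test of edgeR at a Benjamini-Hochberg adjusted p of 0.05, with 15407 genes in the adjustment. Over all tested genes 21.0% were called higher and 17.5% lower. At an unadjusted p of 0.05, 26 members were higher and 0 lower. DESeq2 called 25 higher and 0 lower, and limma voom 22 and 0. The median log2 fold change, 72 h over 0 h, was 1.22 over the 37 tested members and -0.02 over all tested genes. Summed over the 38 genes, the level was 375, 403 and 377 CPM in the 0 h libraries and 1050, 796 and 610 CPM in the 72 h libraries, so that the groups did not overlap.

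The values of single genes did not overlap between groups for 26 of the 38. In 25 of them every 72 h library lay above every 0 h library, which held for 26.5% of all tested genes, and in 1 (Rpa2) every 72 h library lay below, which held for 26.9%. The filter on low counts asked for about 10 reads in 3 libraries. On their 0 h libraries alone 34 members would have passed, while Orc1, Ccne1 and Chaf1b passed only through their 72 h libraries. Orc1 and Ccne1 were called higher, and these calls are in genes tested only because of their 72 h levels. Gins1, a GINS subunit, was too low to be tested, with 3, 5 and 12 reads at 0 h and 17, 29 and 0 reads at 72 h.

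**Figure D1:**
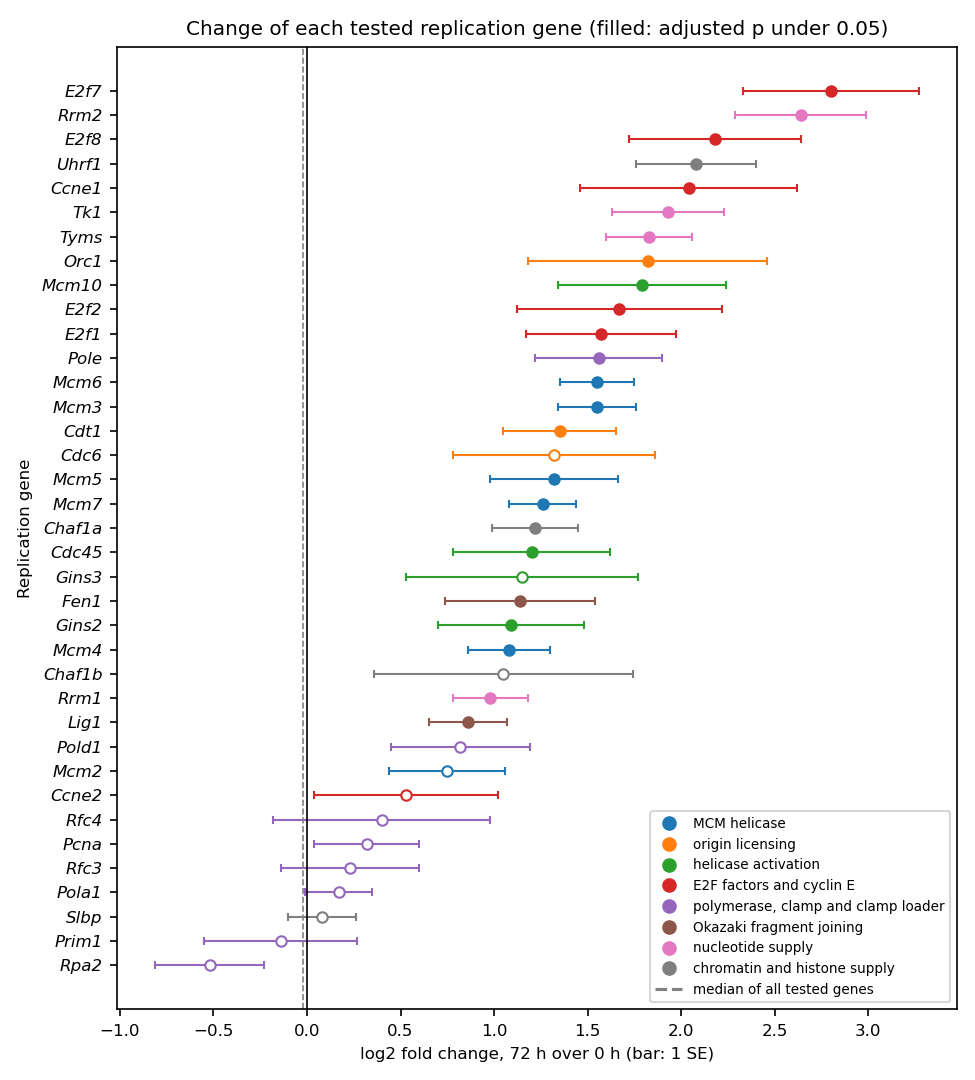
Log2 fold change of each of the 37 tested replication genes, 72 h over 0 h, with bars of 1 SE; colours mark the role of the gene, and filled points passed the test. The changes run from -0.52 for Rpa2 to 2.80 for E2f7, and 7 of the 8 genes for polymerases, clamp and clamp loader are open points.

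The MCM helicase, which unwinds DNA ahead of the polymerases, rose in 5 of its 6 subunits. Mcm6 (ENSMUSG00000026355) was at 18, 21.6 and 16.1 CPM in the 0 h libraries and at 66.4, 55.0 and 41.7 CPM in the 72 h libraries. Even its lowest 72 h value was well above the highest 0 h value, and the log2 change was 1.55 ± 0.20 (SE; adjusted p = 0.00025). Mcm3 (ENSMUSG00000041859) showed the same size of change, from 15.7, 18.2 and 15.9 CPM to 60.5, 48.5 and 36.2 CPM (1.55 ± 0.21, adjusted p = 0.00028). Mcm7 rose by 1.26 ± 0.18, Mcm5 by 1.32 ± 0.34 and Mcm4 by 1.08 ± 0.22 on the log2 scale. Mcm2 (ENSMUSG00000002870) was at 23.7, 25.1 and 29.3 CPM at 0 h and at 61.1, 46.8 and 23.0 CPM at 72 h. Its value in 72 h replicate 3 lay below all 0 h values, and it was not called (log2 change 0.75 ± 0.31, adjusted p = 0.0941). Without that library its log2 change was 1.062 and its adjusted p was 0.000156, in a range of 0.000156 to 0.302 over the alternatives.

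The subunits of the ring can be compared with each other only per length, here as CPM per kilobase of annotated exon. At 0 h the mean ran from 2.48 ± 0.814 for Mcm5 to 5.04 ± 0.677 for Mcm7 (SD, n = 3). At 72 h Mcm3 (12.9 ± 3.24), Mcm7 (12 ± 2.03), Mcm6 (11.7 ± 2.65) and Mcm4 (10.4 ± 3.07) lay within the spread of each other. Mcm2 (6.27 ± 2.77) and Mcm5 (6.19 ± 2.46) were the lowest of the 6. These lengths sum all annotated exons of a gene, also those of rare transcripts, so they can understate a gene with many isoforms.

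Of the factors that load the helicase, Cdt1 and Orc1 rose and Cdc6 did not pass. Cdt1 was at 5.71, 5.16 and 5.05 CPM at 0 h and at 17.5, 11.4 and 11.7 CPM at 72 h, a log2 change of 1.35 ± 0.30 (adjusted p = 0.0058). Orc1, the largest origin recognition subunit, was at 1.04, 0.508 and 0.789 CPM at 0 h and at 3.13, 2.66 and 2.57 CPM at 72 h. These levels rest on 6 to 27 reads per library, and the log2 change of 1.82 ± 0.64 was close to the threshold (adjusted p = 0.045). Cdc6, the loading ATPase, was at 1.47, 4.40 and 1.66 CPM at 0 h and at 8.57, 5.89 and 4.40 CPM at 72 h. Its 72 h values all lay at or above the highest 0 h value, but it was not called (1.32 ± 0.54, adjusted p = 0.082). It was called in 3 alternatives: limma voom, without 72 h replicate 3, and without 0 h replicate 2, the library with the high 0 h value. Its adjusted p ranged from 0.0331 to 0.244 over the alternatives.

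Helicase activation genes rose for 3 of 5 members. Mcm10, which helps the loaded ring to fire, was at 2.34, 3.05 and 4.42 CPM at 0 h and at 17.7, 6.93 and 9.29 CPM at 72 h (log2 change 1.79 ± 0.45, adjusted p = 0.010). Cdc45 was at 3.11, 2.79 and 4.02 CPM at 0 h and at 10.3, 7.62 and 4.89 CPM at 72 h (1.20 ± 0.42, adjusted p = 0.046). The GINS subunit Gins2 rose by 1.09 ± 0.39 (adjusted p = 0.0495), a call at the threshold. The other tested GINS subunit among the members, Gins3, was not called (adjusted p = 0.17). It overlapped between the groups, at 1.38 to 3.22 CPM at 0 h and 2.31 to 9.72 CPM at 72 h. Gins4, a GINS subunit outside the member list, was not called either (log2 change 0.12 ± 0.24, adjusted p = 0.72).

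Among E2F factors and E cyclins 5 of 6 genes rose. The largest change of all members was that of E2f7 (ENSMUSG00000020185), an atypical E2F that represses E2F targets. It was at 2.42, 2.71 and 1.34 CPM at 0 h and at 23.0, 14.2 and 7.95 CPM at 72 h, a log2 change of 2.80 ± 0.47 (adjusted p = 0.0011). E2f8 (ENSMUSG00000046179), its close relative and also a repressor, was at 2.85, 2.96 and 1.18 CPM at 0 h and at 14.6, 9.01 and 8.19 CPM at 72 h (2.18 ± 0.46, adjusted p = 0.0042). For both genes the lowest 72 h value was far above the highest 0 h value. The activating factors E2f1 and E2f2 rose by 1.57 ± 0.40 and 1.67 ± 0.55 (adjusted p = 0.011 and 0.037). E2f1 was at 2.77, 5.50 and 6.86 CPM at 0 h and at 20.6, 11.2 and 13.3 CPM at 72 h. The groups did not overlap for E2f1 or for E2f2, and differences between the 4 E2F genes were not tested.

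Cyclin E, the partner of Cdk2 at the start of S phase, is encoded by a pair of genes. Ccne1 was at 0.778, 1.78 and 1.58 CPM at 0 h and at 8.80, 5.43 and 2.93 CPM at 72 h, and rose by 2.04 ± 0.58 (adjusted p = 0.019). It passed the filter on low counts only through its 72 h libraries. Ccne2 was at 2.94, 1.86 and 2.45 CPM at 0 h and at 4.05, 3.12 and 3.30 CPM at 72 h. The Ccne2 values did not overlap between groups but lay close together, and the gene was not called (0.53 ± 0.49, adjusted p = 0.43).

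**Figure D2:**
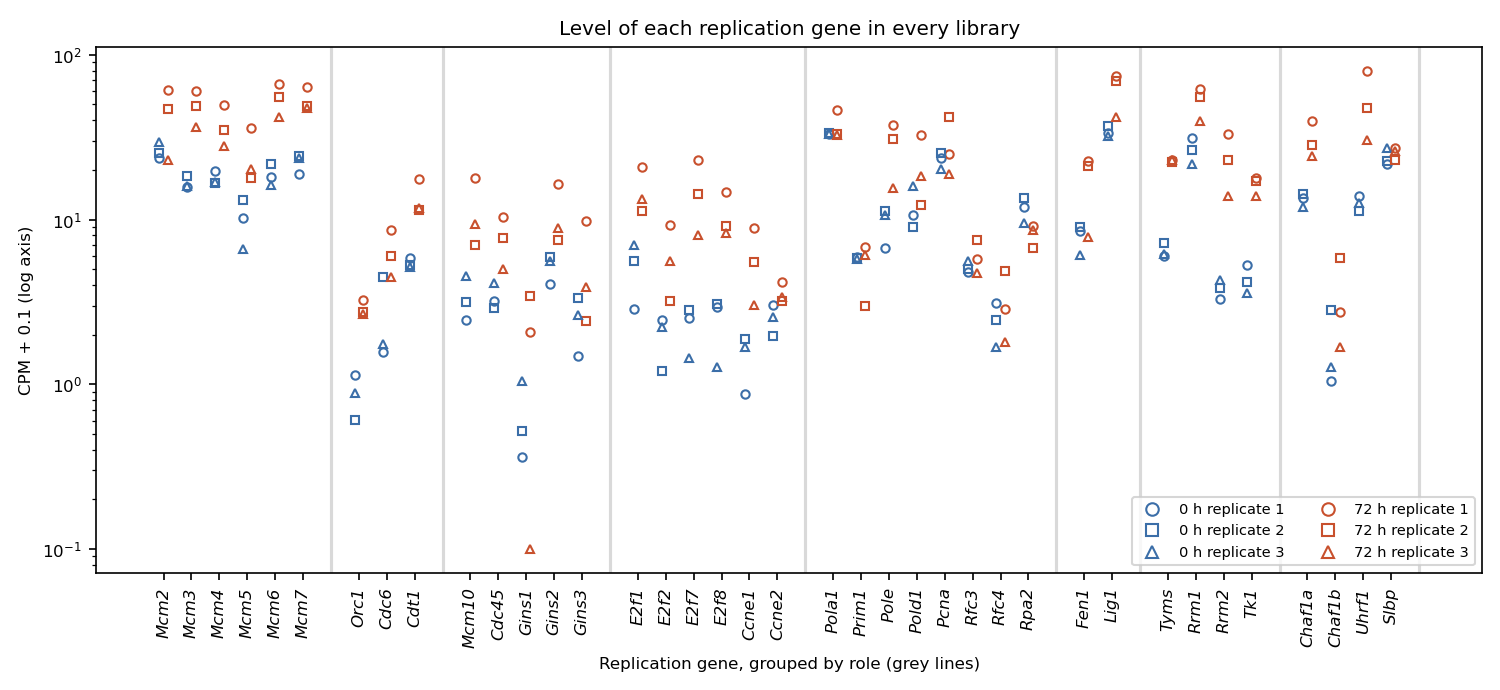
Level of each of the 38 replication genes in every library, as CPM plus 0.1 on a log axis; blue is 0 h, orange is 72 h, and the marker shape gives the replicate. In the E2F, licensing and nucleotide groups all orange points lie above the blue ones of the same gene, while both colours overlap for 12 genes: Mcm2, Gins1, Gins3, Pola1, Prim1, Pold1, Pcna, Rfc3, Rfc4, Fen1, Chaf1b and Slbp.

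Of 8 genes for polymerases, the sliding clamp, its loader and single-strand binding protein, 1 rose and 7 were not called. The gene that rose was Pole (ENSMUSG00000007080), the catalytic subunit of leading-strand polymerase epsilon, at 6.66, 11.1 and 10.5 CPM at 0 h and 37.4, 30.6 and 15.4 CPM at 72 h (log2 change 1.56 ± 0.34, adjusted p = 0.0051). Pold1, the catalytic subunit of polymerase delta, was at 10.6, 8.97 and 15.9 CPM at 0 h and 32.4, 12.1 and 18.3 CPM at 72 h. Its groups overlapped and it was not called (0.82 ± 0.37, adjusted p = 0.11). Over the alternatives its adjusted p ranged from 0.0343 to 0.458, and it was called when 72 h replicate 2 was left out and when no filter on low counts was used.

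Pola1, the catalytic subunit of polymerase alpha, which starts each strand, was at 32.9, 33.4 and 33.1 CPM at 0 h. At 72 h it was at 46.4, 32.8 and 32.3 CPM, so that 1 library lay above and the other two just below the 0 h values (log2 change 0.17 ± 0.18, adjusted p = 0.49). Its partner Prim1, a primase subunit, was at 5.68 to 5.79 CPM at 0 h and at 6.71, 2.89 and 5.99 CPM at 72 h (-0.14 ± 0.41). Pcna (ENSMUSG00000027342), the sliding clamp and a common protein marker of S phase, was at 23.4, 25.1 and 20.3 CPM at 0 h and at 24.9, 42.1 and 18.8 CPM at 72 h. Only 72 h replicate 2 lay clearly above the 0 h range, and Pcna was not called (0.32 ± 0.28, adjusted p = 0.40). Per kilobase of exon it was at 9.54 ± 1.01 at 0 h, the highest level among the 38 genes at that time, ahead of Lig1 at 7.97 ± 0.583 (SD, n = 3). The limit on exon lengths given for the MCM genes holds for this ranking too.

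The clamp loader genes Rfc3 (0.23 ± 0.37) and Rfc4 (0.40 ± 0.58) were not called either, at 1.58 to 5.52 CPM at 0 h and 1.71 to 7.39 CPM at 72 h. Rpa2, a subunit of the single-strand binding protein, was at 11.8, 13.5 and 9.47 CPM at 0 h and at 9.03, 6.58 and 8.56 CPM at 72 h. It was the one member with all 72 h values below all 0 h values, and it was not called (-0.52 ± 0.29, adjusted p = 0.18). Flap endonuclease Fen1 and DNA ligase Lig1, which join Okazaki fragments, both rose. Lig1 went from 33.3, 36.8 and 32.0 CPM to 74.1, 69.7 and 41.7 CPM (0.86 ± 0.21, adjusted p = 0.0085). Fen1 was at 8.39, 8.97 and 5.99 CPM at 0 h and at 22.7, 21.1 and 7.70 CPM at 72 h, so that 72 h replicate 3 lay inside the 0 h range (1.14 ± 0.40, adjusted p = 0.045).

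All 4 genes of deoxynucleotide supply rose, and none of them overlapped between groups. Tyms (ENSMUSG00000025747), thymidylate synthase, was at 5.88, 7.11 and 6.07 CPM at 0 h and at 23.0, 22.1 and 22.9 CPM at 72 h. The 72 h values differed little from each other, unlike those of most members, and the log2 change was 1.83 ± 0.23 (adjusted p = 0.00017), the smallest adjusted p of the 38. Rrm2 (ENSMUSG00000020649), the regulated subunit of ribonucleotide reductase, was at 3.20, 3.72 and 4.18 CPM at 0 h and at 32.8, 22.9 and 13.8 CPM at 72 h (2.64 ± 0.35, adjusted p = 0.00026). Its partner Rrm1, the large subunit, went from 31.1, 26.4 and 21.6 CPM to 61.6, 55.1 and 39.3 CPM (0.98 ± 0.20, adjusted p = 0.0040). Per kilobase of exon, Rrm2 was at 1.34 ± 0.177 against 2.40 ± 0.432 for Rrm1 at 0 h, and at 8.37 ± 3.42 against 4.72 ± 1.04 at 72 h (SD, n = 3). The length used, the sum of all annotated exons, was 11012 bases for Rrm1 and 2771 for Rrm2. The level of Rrm1 can therefore be understated, and the order of these genes at 72 h can depend on that length. Tk1, cytosolic thymidine kinase of the salvage route, was at 5.19, 4.06 and 3.47 CPM at 0 h and at 17.7, 17.0 and 13.7 CPM at 72 h (1.93 ± 0.30, adjusted p = 0.00066).

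Chromatin genes of S phase were divided, with 2 of 4 higher. Uhrf1 (ENSMUSG00000001228), which brings the maintenance DNA methyltransferase to newly copied DNA, was at 13.7, 11.1 and 12.5 CPM at 0 h and at 79.8, 47.2 and 30.4 CPM at 72 h. It rose by 2.08 ± 0.32 (adjusted p = 0.0010), with 72 h replicate 1 far above the other 72 h libraries. Chaf1a, the large subunit of chromatin assembly factor 1, rose from 13.4, 14.1 and 11.8 CPM to 39.4, 28.3 and 24.1 CPM (1.22 ± 0.23, adjusted p = 0.0020). Chaf1b, the middle subunit, was low at 0.951 to 2.71 CPM at 0 h and 1.59 to 5.78 CPM at 72 h and was not called (adjusted p = 0.27). Slbp (ENSMUSG00000004642), which binds the stem-loop of histone mRNAs, was at 21.5, 22.6 and 27.1 CPM at 0 h and at 27.0, 22.8 and 25.8 CPM at 72 h. The groups overlapped fully, with a log2 change of 0.08 ± 0.18 (adjusted p = 0.75).

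Replication-dependent histone genes, whose mRNAs Slbp serves, were counted because total RNA was sequenced. They were picked by symbol, from Hist1h to Hist4h without pseudogenes, so some in the list may not depend on replication or on Slbp. Of 69 such genes 49 were tested, 16 rose and 3 fell, beside 21.0% and 17.5% of all tested genes, with a median log2 change of 0.60. Of the 16 rises 6 were in genes that passed the filter only through their 72 h libraries. Of 5 tested linker histone genes 3 rose and 2 did not pass, and the 2 were the most abundant of the 5: Hist1h1c (-0.49 ± 0.21) and Hist1h1e (0.18 ± 0.17). Hist1h1b (histone H1.5) was at 9.34, 10.4 and 5.52 CPM at 0 h and at 57.4, 35.9 and 36.1 CPM at 72 h (2.36 ± 0.29, adjusted p = 0.00016). Hist1h1d (histone H1.3) went from 18.5, 16.3 and 17.9 CPM to 133, 71.2 and 53.2 CPM (2.29 ± 0.33, adjusted p = 0.0011). Genes that fell were Hist1h2bc, Hist1h4h and Hist3h2ba, and the 7 histone genes named here were chosen after their values were seen. As a share of all gene counts the 69 genes held 0.0784%, 0.0628% and 0.0643% at 0 h and 0.108%, 0.0803% and 0.0615% at 72 h. The shares overlapped and did not pass an exact two-sided permutation test (p = 0.5, where 3 against 3 libraries cannot go below 0.1). Hist1h1c alone held 3397 of 8884, 2277 of 7402 and 2329 of 7994 histone reads at 0 h. At 72 h it held 1692 of 9103, 1281 of 6926 and 1090 of 5500. The share therefore leans on a few abundant genes and does not describe most of the 69. Copies of these genes are nearly identical, so counts of single genes are uncertain, and 5 of the 69 had no read at 0 h. The 16 rises became 10 without 0 h replicate 1, 9 without 0 h replicate 2 and 9 without 72 h replicate 1, and without either of those 0 h libraries 0 genes fell.

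The 72 h libraries differed from each other in the same way across most members. The highest 72 h value lay in 72 h replicate 1 for 33 of 38 genes and in 72 h replicate 2 for the other 5, and 72 h replicate 3 was the lowest for 25. Over all tested genes 72 h replicate 1 was the highest of the 72 h libraries for 32.0% and 72 h replicate 3 the lowest for 39.1%. Relative to the 0 h mean, with 0.5 CPM added to both, the median log2 ratio over tested members was 1.55 in 72 h replicate 1, 1.05 in replicate 2 and 0.70 in replicate 3. The same median over all tested genes was -0.05, -0.04 and -0.05. In the 0 h libraries the member medians were -0.03, 0.10 and -0.01, so the pools taken at 0 h lay much closer together. These are values of pools with no order among replicates, and members of 1 library share its RNA.

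**Figure D3:**
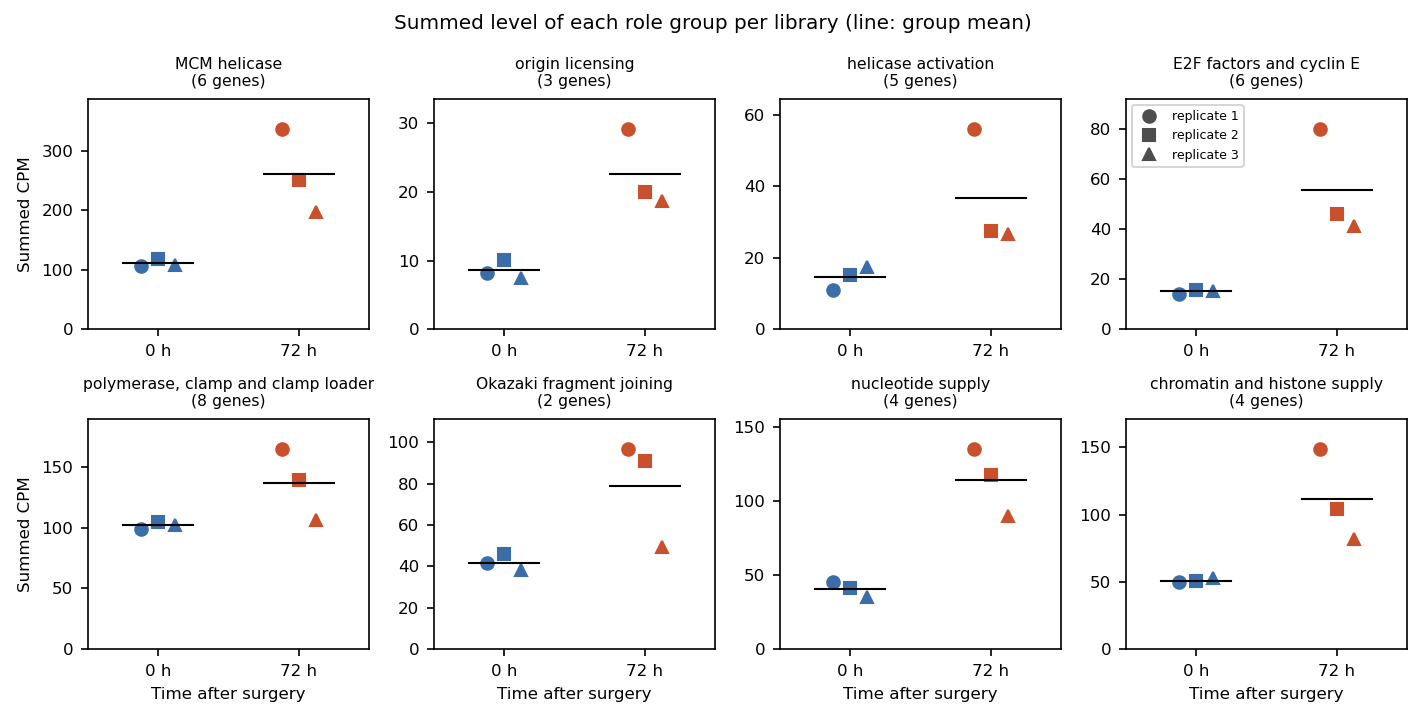
Summed CPM of each role group in every library, on axes that start at 0; blue is 0 h, orange is 72 h, the marker shape gives the replicate, and lines are group means. In every panel 72 h replicate 1 is the highest and 72 h replicate 3 the lowest of the 72 h libraries, from 337 and 197 CPM for the MCM helicase to 165 and 106 CPM for the polymerase group, where 0 h libraries reach 105 CPM.

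Markers of several other cell types also differed between the groups. Of 12 macrophage and monocyte markers 10 were higher at 72 h, and the list summed to 43.4 to 53.3 CPM at 0 h and to 298, 378 and 221 CPM in 72 h replicates 1, 2 and 3. Of those 12, 7 passed the filter only through their 72 h libraries, and 6 of the 10 rises were among these. Over all tested genes 21.0% were called higher and 17.5% lower. Of 9 neutrophil markers 7 were too low to be tested, and the 2 tested passed only through their 72 h libraries, so no call is read from them. The neutrophil list summed to at most 1.58 CPM at 0 h and to 20.7 to 44.5 CPM at 72 h, with Ly6g, Mpo, Elane and Camp at 0 reads in every library. Lymphocyte markers summed to at most 4.04 CPM in any library. Of 10 photoreceptor markers 9 were lower at 72 h, with sums of 676 to 1658 CPM at 0 h and 54.1 to 153 CPM at 72 h. All 10 lens fiber markers found were lower, as were 2 of 6 melanocyte and pigment epithelium markers, while 0 of 3 tested endothelial and 0 of 3 tested erythroid markers were called. The part of such cells in the replication gene values was not tested. The surface epithelium markers, highest in 72 h replicate 3, were in the library where most members were lowest. Without 72 h replicate 3 the test called 25 members higher and 0 lower, and the median log2 change was 1.449. Without 72 h replicate 1, where most members were highest, it called 16 higher and 0 lower, with a median of 1.011.

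Among tested genes of the replication pathway outside the member list 43 rose (37.1%), 9 fell (7.76%) and 64 were not called, with a median log2 change of 0.54, beside 21.0% higher and 17.5% lower over all tested genes. Of the 43 rises 8 were in genes that passed the filter on low counts only through their 72 h libraries, Ticrr, Cdkn1a and Fanci among them, so these had to differ to be tested. Among 17 other origin and helicase genes 6 rose, including Ticrr (3.39 ± 0.48), needed to recruit Cdc45, and Dbf4 (2.26 ± 0.39), the activator of the Cdc7 kinase. Orc2, Orc3, Orc4, Orc5 and Orc6, the other subunits of the origin complex, were not called, with log2 changes between -0.45 and 0.20. Among 29 other fork genes 9 rose and 2 fell. Of the further polymerase and primase subunits, Pola2 (1.29 ± 0.27), Pold4 (2.15 ± 0.48) and Pole2 (2.10 ± 0.71) rose. Pole2 passed the filter only through its 72 h libraries, and its groups overlapped. Prim2, Pold2, Pold3, Pole3 and Pole4 were not called. Top2a, which untangles copied chromosomes, rose by 2.82 ± 0.19 (adjusted p = 4.8e-06), and Rpa1, the large subunit of the complex that holds Rpa2, fell by 0.75 on the log2 scale (SE 0.16, adjusted p = 0.0048).

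Of 19 tested nucleotide genes outside the member list 4 rose (21.1%) and 3 fell (15.8%), shares near those over all tested genes. Dck, deoxycytidine kinase, rose by 2.17 ± 0.30, while Paics, an enzyme of purine synthesis, fell by 0.91 on the log2 scale (SE 0.15). Among 23 other G1/S regulators 11 rose and 2 fell. The Cdk inhibitor gene Cdkn1a was at 0.0865, 0.0847 and 0.394 CPM at 0 h and at 27.0, 11.7 and 30.7 CPM at 72 h (6.82 ± 0.61, adjusted p = 2.2e-05). Its relative Cdkn1c went the other way, from 169, 174 and 180 CPM to 18.9, 11.1 and 13.3 CPM (-3.59 ± 0.19, adjusted p = 7e-07). Among 14 chromatin genes 5 rose and 1 fell, with Dnmt1, the maintenance DNA methyltransferase, higher by 0.88 ± 0.14 and Rbbp4, a histone-binding subunit shared by several complexes, at -0.41 ± 0.10, a call lost without 0 h replicate 2 (adjusted p = 0.051, range 0.00446 to 0.051). Among 14 genes of the fork checkpoint and recombination 8 rose (57.1%, beside 21.0% of all tested genes). Of these 8, 4 passed the filter only through their 72 h libraries, among them Fanci, of the crosslink repair pathway, at 3.29 ± 0.50.

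For comparison, 18 genes of mitosis were read from the same fit. All 18 rose, beside 21.0% of all tested genes, with log2 changes from 1.89 to 3.74 and a median of 2.79. Of the replication genes 24 of 37 rose, with a median of 1.22. Of the 18, 2 passed the filter only through their 72 h libraries. Cenpe and Cenpf, both kinetochore proteins, rose by 3.74 ± 0.21 and 2.98 ± 0.17. The mitosis list summed to 149 to 166 CPM at 0 h and to 1390, 1170 and 808 CPM in 72 h replicates 1, 2 and 3, the same order of libraries as for the replication genes. No test of the difference between the lists was made, and both lists were chosen with earlier results of these data known.

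**Figure D4:**
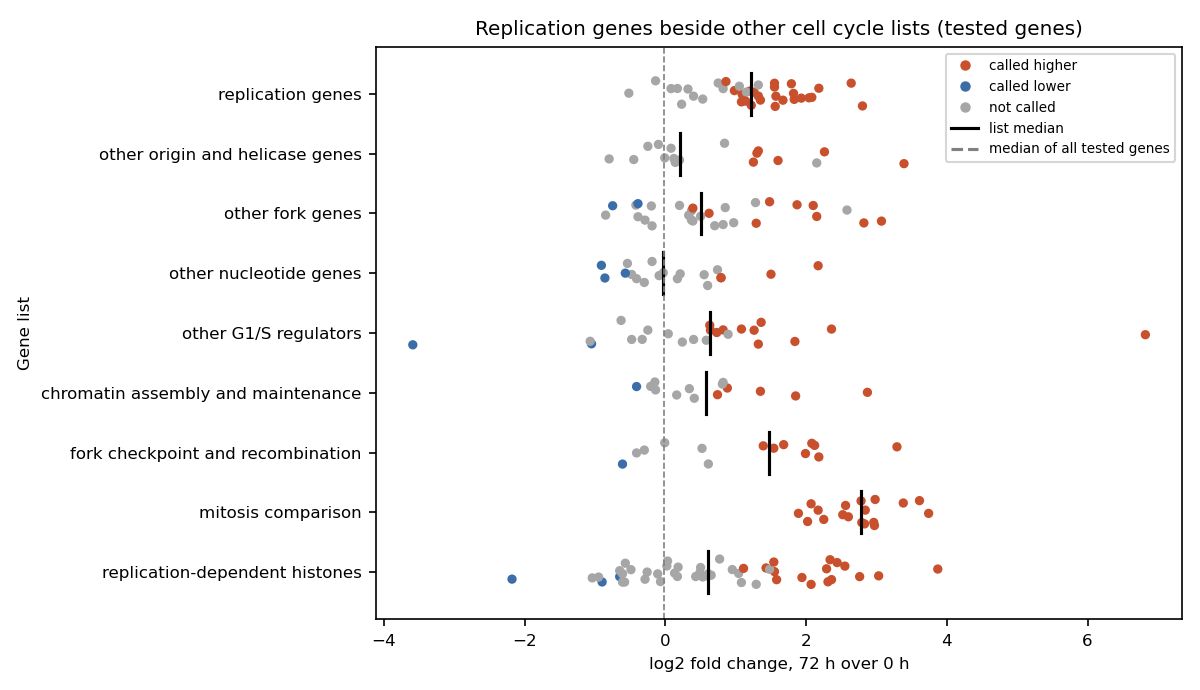
Log2 fold change, 72 h over 0 h, of every tested gene in the replication list, 6 further pathway lists, the mitosis list and the replication-dependent histones; points are coloured by call, black lines are list medians and the dashed line is the median of all tested genes (-0.02). Mitosis genes lie at 1.89 or above, replication genes spread from -0.52 to 2.80, and the other nucleotide genes centre at -0.03.

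Of the 24 calls among members, 16 held in every alternative in which the gene was tested, and 8 did not. Those 8 were Mcm5, Orc1, Mcm10, Cdc45, Gins2, E2f2, Ccne1 and Fen1. Their adjusted p reached at most 0.0548 for Mcm5, 0.0525 for Mcm10, 0.0879 for Ccne1, 0.154 for E2f2, 0.155 for Cdc45, 0.157 for Fen1, 0.164 for Orc1 and 0.214 for Gins2, and their log2 changes stayed above 0.6. For 14 members exons overlap another gene on the opposite strand in the GENCODE M21 annotation, and reads of such pairs cannot be told apart where counting ignores strand, a setting the sources used here do not give. The overlap covered 78.8% of the exon bases of Fen1, 67.3% of those of Gins2 and 52.5% of those of Chaf1a. Pcna and Tyms have pseudogene copies annotated under their own names, between which reads may be split or dropped. Copies of members under other names were not searched for.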

How the data were processed

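Per the labels' protocols, RNA was isolated with RNeasy columns (Qiagen) and the 6 libraries, 3 at each time, were built with Takara's SMARTer Stranded Pico v2 chemistry. What the authors deposited is 1 raw count of reads for each Ensembl gene and library, without normalization. The submitters' processing notes name HISAT2, HTSeq, edgeR and GRCm39, while versions, annotation and strand setting are not given in the sources used here. Reads that the counting did not assign to a gene, for whatever reason (44.0% ± 1.85 at 0 h, 49.7% ± 1.87 at 72 h), were left out.

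Symbols came from GENCODE M21 by identifier (51947 of 56940 matched). Genes were filtered with filterByExpr (minimum count 10, minimum total 15), normalised by TMM and tested for time with edgeR's quasi-likelihood test (edgeR 4.0.16, R 4.3.3; robust, prior count 0.125), two-sided, adjusted over 15407 genes. SE was derived from the fold change and F. CPM uses TMM-adjusted library sizes. DESeq2 1.42.0 and limma 3.58.1 were alternatives, with other normalizations and filters, a replicate block and each library left out. On simulated data for 72 h over 0 h with 14905 genes, 65.6% of 4-fold and 27.4% of 2-fold changes were recovered. At 10 CPM or more these shares were 90.9% and 44.6%, and 0.109% of unchanged genes were called. The simulation held 93 genes changed 4-fold and 95 changed 2-fold, while 5930 genes were called in the data. An adjusted p is stricter where few genes change, so these shares do not measure recovery in the data. Single genes that were not called may still have changed.

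Named were all 38 members and, from each other list, the 2 called genes of smallest p, or 1 per direction. The Orc2 to Orc6 subunits, Gins4, further polymerase and primase subunits and the histone genes are named beyond this rule, after their values were seen. Members and lists were chosen with earlier results of these data known. Exon lengths came from GENCODE M21, which is on another build than the GRCm39 of the processing notes. Coordinates are therefore given only for the printed promoters, on GRCm38.p6, and not for the exons that were counted. Protein stretches planned for the MCM subunits are not used here. Of the listed genes Chtf8, Lin54 and Lim2 had no single match. The result for 1 gene that the naming rule selects is not reported here.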

Additional observations from a re-analysis of the deposited data

How the results depend on the processing

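Under 14 alternatives between 16 and 25 replication genes were called higher and 0 lower, and their median log2 change ran from 1.011 to 1.449; both ends came from leaving out a library, 72 h replicate 1 and 72 h replicate 3. Over all genes the calls ran from 2511 to 3646 higher and from 1877 to 3265 lower. Leaving out 1 library gave 29 to 51 higher and 7 to 14 lower genes in the other pathway lists, the 14 without 72 h replicate 1. For histone genes it gave 9 to 20 higher and 0 to 4 lower, and the stricter minimum count of 50, under which fewer genes are tested, gave 9 higher. The difference in histone share ran from 0.0024 to 0.0255 percentage points. The sign of an uncalled member turned in 5 cases: with libraries left out, Pola1 ran from -0.032 to 0.271, Prim1 from -0.381 to 0.143, Pcna from -0.07 to 0.557 and Rfc4 from -0.049 to 0.703 (log2; turned without 72 h replicate 1 for Pola1, without 72 h replicate 2 for the others), and Slbp with upper quartile normalization (-0.001); the cause was not tested. With the replicate number as a block, 20 replication genes rose and 0 fell, and 2921 and 2507 of all genes were called higher and lower. Same-numbered libraries did not deviate together (correlations -0.037, 0.059 and -0.012 over 15407 genes, which are not independent replicates), so the numbers were not taken as pairs. Depth limits the lowest members, such as Orc1 with 6 to 27 reads a library.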
